A study of Mus musculus with 12 samples.

Results

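Nucleolar ribosome biogenesis factors are the proteins that cut, modify, fold and package ribosomal RNA on its way to the mature ribosomal subunits. The set described here was fixed as a list of 52 gene symbols, and 51 of them could be read from a probe set that the platform annotation ties to 1 gene symbol. The remaining gene, Mrto4, is covered here by a probe set that carries several symbols, and it was not analysed. The 51 factors hold 100 of the 45037 probe sets tested, and each factor was read from its brightest probe set, as were all 18193 genes of the array. By role 4 are proteins of box C/D small nucleolar ribonucleoproteins (snoRNPs) and 4 are core proteins of box H/ACA snoRNPs. A further 20 are small subunit processing factors, 17 are large subunit processing factors and 6 are scaffold and other nucleolar proteins.

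The precursor of ribosomal RNA is made by RNA polymerase I in the nucleolus. Box C/D snoRNPs methylate riboses and box H/ACA snoRNPs convert uridines to pseudouridines at sites picked by their guide RNAs, while separate sets of processing factors cut the precursor and assemble the small and the large subunit. The kinase mTOR is known to drive ribosome production in growing cells, and rapamycin inhibits mTOR complex 1.

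All arrays held RNA of TSC2-/- mouse embryonic fibroblasts, which lack a protein that holds mTOR complex 1 in check, grown in DMEM with 10% CCS. Vehicle cells received DMSO for 14 h and rapamycin cells 20 nM rapamycin for 14 h. In the other experiment confluent TSC2-/- cells were infected for 10 h with an adenovirus carrying GFP or PGC-1alpha, a transcriptional coactivator best known for raising mitochondrial genes, and were harvested 14 h after the medium was changed. Each of the 4 groups has 3 Affymetrix MOE430 v2 arrays, which the series' text calls biological triplicates. No cells with intact TSC2 were analysed here, the labels do not say how many cell isolates the cultures came from, and PGC-1alpha came from a viral vector rather than from the cells' own gene. The rapamycin and PGC-1alpha experiments were normalized separately, so levels are compared only inside an experiment.

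Median intensity lay between 77.5 and 81.0 on the 12 arrays, and log2 values of any pair of arrays from the same group had a correlation of at least 0.997. Of 12 fibroblast markers 11 were brighter than the median probe set, against 1 of 6 macrophage, 1 of 5 endothelial, 3 of 6 epithelial and 2 of 4 neural markers. Ptprc, Pecam1, Cdh5, Cdh1 and Sox2 lay at or below percentile 25.7 of brightness. Other markers of those cell types were brighter, with Epcam at percentile 90.7, Nes at 87.2, Krt18 at 84.6, Csf1r at 73.7, Kdr at 69.4, Tubb3 at 61.5 and Krt8 at 61.2, and the fibroblast gene Lum was dim at 29.2. With rapamycin the summed intensity of the epithelial markers was 1579 to 1639 against 1316 to 1382 with vehicle, that of the fibroblast markers 63147 to 67521 against 59655 to 61659, that of the macrophage markers 473 to 494 against 439 to 472, and that of the neural markers 592 to 605 against 645 to 713. The endothelial sums overlapped, at 299.8 to 316 against 288 to 315, and between PGC-1alpha and GFP the sums of every marker list overlapped. The ratio of the Gapdh 3′ to 5′ control probe sets, a sign of RNA quality, was 0.807 to 0.826 with rapamycin and 0.840 to 0.861 with vehicle. It was 0.865 to 0.879 on GFP arrays against 0.894 to 0.905 on PGC-1alpha arrays. The beta-actin ratio was 1.30 to 1.32 with rapamycin, 1.29 to 1.33 with vehicle, 1.26 to 1.32 with GFP and 1.31 to 1.33 with PGC-1alpha. The transferrin receptor ratio was much higher, at 3.81 to 4.17 with rapamycin and 3.56 to 3.89 with vehicle. With GFP it was 2.95 to 3.02 and with PGC-1alpha 2.98 to 3.38. In the beta-actin and transferrin receptor ratios the groups of each experiment overlapped. In the PGC-1alpha group 1 of the 5 probe sets of the expressed gene, Ppargc1a, read 2295, 2183 and 2554 against 81.0, 81.0 and 101 with GFP; the other 4 were not called. The part of the marker and RNA quality shifts in the results below was not tested.

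With rapamycin the nucleolar factors were lower nearly throughout. Of the 51 factors, 48 fell and 0 rose at an adjusted p under 0.05 (limma, Benjamini-Hochberg over all probe sets), and at an unadjusted p under 0.05 the counts were also 48 and 0. Of all 18193 genes 18.0% fell and 11.3% rose at the adjusted threshold, and 22.6% were lower and 15.6% higher at the unadjusted one. The factors are bright genes, 50 of them above percentile 75 of probe sets by mean log2 intensity, and among the 6818 genes above that percentile 35.2% fell and 16.7% rose. The median change of the factors was -0.62 on the log2 scale, a 1.54-fold fall, against -0.01 for all genes. The same 48 factors had all 3 rapamycin arrays below all 3 vehicle arrays, an order seen in 24.6% of all genes. In a bulk culture, fewer cells that express a gene and less of its RNA per cell cannot be told apart. Because RMA makes the arrays of an experiment alike in their overall distribution, each change is a shift against the rest of the array.

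The spread among the factors was wide. By brightest probe set, changes ran from -1.17 for Dkc1 to 0.09 for Imp3 on the log2 scale, with an SD over the 51 genes of 0.26. Dkc1, Rrp12, Wdr12 and Lyar fell by more than 1 log2 unit, 38 factors were more than 0.5 below vehicle, and Nop10, Rcl1 and Imp3 did not pass the test. The class medians were -0.69 for box C/D proteins (4 of 4 fell), -0.56 for box H/ACA proteins (3 of 4), -0.62 for small subunit factors (18 of 20), -0.65 for large subunit factors (17 of 17) and -0.71 for the scaffold and other proteins (6 of 6).

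**Figure D1:**
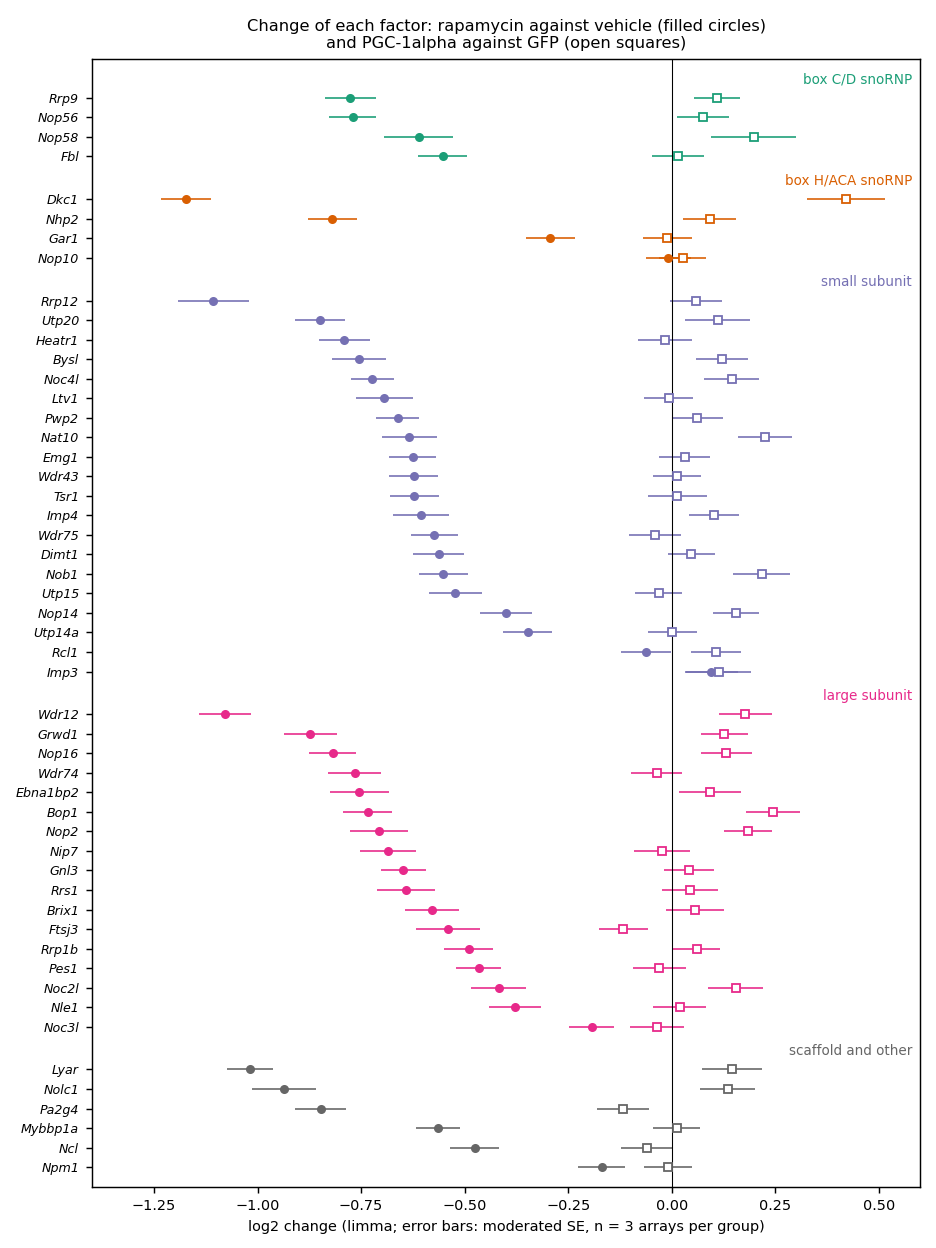
Log2 change of each of the 51 factors, grouped by role, for rapamycin against vehicle (filled circles) and PGC-1alpha against GFP (open squares); error bars are limma's moderated standard errors, with 3 arrays per group. Rapamycin values lie left of 0 for all factors but Imp3, from -1.17 to 0.09, while PGC-1alpha values lie between -0.12 and 0.42.

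The shift was present on each rapamycin array. Relative to the vehicle mean of each gene, the median factor stood at -0.71, -0.55 and -0.66 log2 units on rapamycin replicates 1, 2 and 3 and at 0.04, 0.02 and -0.06 on the vehicle arrays. Replicate 2 was thus the least shifted of the rapamycin arrays, and the distance between any rapamycin and any vehicle array was larger than the differences within either group.

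**Figure D2:**
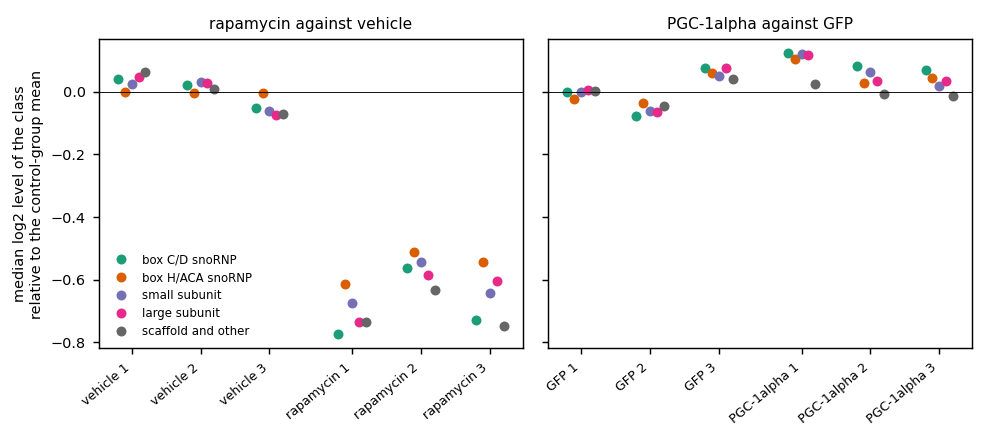
Median log2 level of each class on each array, relative to the mean of the control group of its experiment (vehicle on the left, GFP on the right). On the left every class median of the rapamycin arrays lies below every class median of the vehicle arrays; on the right the groups lie close to 0 and overlap.

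Promoter sequence was examined because the factors moved together. RefSeq windows of the GRCm38.p6 assembly, from 250 bases before to 50 after a start site, were found for 46 of the 51 factors (50 windows). The E-box CACGTG, a palindrome that reads the same on both strands and is bound by Myc with Max among other factors, was present in 10 of these windows (20.0%), against 7.84% of the 21262 windows of protein-coding genes. In these 10 factors 8 E-boxes began after the start site, between base 3 and base 41, and the other two began 121 (Imp4) and 60 (Nop2) bases before it. Over all windows 12.9% of 1855 E-boxes lay after the start. Median GC content was 59.5% in the windows of the factors and 56.3% over all windows. Its part in the E-box shares was not tested, and no share was taken among bright genes alone. The 10 E-boxes are shown with up to 9 bases on each side because this motif was the more frequent of the pair searched, with its letters in capitals:
Grwd1, chr7:45830741-45830764, minus strand: ccggagtcgCACGTGtgaaaccgg
Imp4, chr1:34439699-34439722, plus strand: gtcttagacCACGTGacatcccaa
Ltv1, chr10:13193095-13193118, minus strand: ctgtggaccCACGTGtggagctgc
Mybbp1a, chr11:72441358-72441376, plus strand: ttctgagccCACGTGtttg
Nle1, chr11:82908358-82908381, minus strand: gttctcctcCACGTGgggacgcag
Nop2, chr6:125131814-125131837, plus strand: tccctggatCACGTGtgttccggt
Pes1, chr11:3963968-3963991, plus strand: taggcagggCACGTGcgggaggaa
Tsr1, chr11:74898095-74898118, plus strand: cttggtgcaCACGTGgactgcaga
Utp20, chr10:88826765-88826786, minus strand: cactaactaCACGTGaggaaaa
Wdr43, chr17:71616223-71616246, plus strand: ccgggcgaaCACGTGgctgccgcg
The median log2 change with rapamycin was -0.62 in the 10 factors with the E-box (-0.87 to -0.38) and -0.63 in the 36 without it (-1.17 to 0.09). A link between the E-box and the response was not tested. The series' title names YY1, and the YY1 core letters AAGATGG, searched on both strands, were in 4 of the 50 windows (8.0%) and in 6.24% of all windows. A match to such letters is a description of the window and does not show binding.

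The box C/D proteins fell together. Fbl, the methyltransferase fibrillarin, read 3445, 3425 and 3263 intensity units on the vehicle arrays and 2212, 2462 and 2236 with rapamycin. The groups did not overlap, and the log2 change was -0.55 (SE 0.06, adjusted p = 1.5e-05). Nop56, which with Nop58 forms the body of the particle around the guide RNA, went from 1538, 1483 and 1424 to 849.9, 907 and 849, a change of -0.77 (SE 0.06, adjusted p = 8.7e-07). For Nop58 the values were 1089.5, 1051 and 968 with vehicle and 608, 779.5 and 657 with rapamycin. Replicate 2 was again the highest of the treated arrays, and the change of Nop58 was -0.61 (SE 0.08, adjusted p = 0.0001). Rrp9, a protein particular to the U3 snoRNP that takes part in cutting the precursor, fell from 770.4, 823 and 787 to 461, 498 and 433, by 0.78 on the log2 scale (SE 0.06, adjusted p = 1.7e-06).

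The box H/ACA proteins, which also belong to telomerase, did not move alike. Dkc1, the pseudouridine synthase dyskerin, had intensities of 824, 864 and 908 with vehicle and 361, 394 and 396 with rapamycin. By brightest probe set this was the largest change among the 51 factors, at -1.17 (SE 0.06, adjusted p = 8.5e-08). It leaves 44.4% of the vehicle level. Dimmer probe sets of Pa2g4 (-1.58 and -1.51) and Ncl (-1.19) fell further. Nhp2 fell from 2828, 2729.5 and 2682 to 1458, 1633 and 1583 (log2 change -0.82, adjusted p = 7.7e-07). Gar1 moved less, from 816, 751 and 716 to 611, 629 and 619.9, without overlap and with a log2 change of -0.29 (SE 0.06, adjusted p = 0.0022). Nop10, the smallest of the core proteins, read 3180.2, 3311 and 3329.6 with vehicle and 3194, 3183 and 3386 with rapamycin. The groups overlapped, with a change of -0.01 whose 95% interval ran from -0.13 to 0.11 (adjusted p = 0.94). A second probe set of Nop10 also gave -0.01. Dkc1 and Nop10 thus mark both ends of the response within a single complex, and the 160 bases of each promoter that end at the base before its RefSeq start site are printed for comparison. Neither stretch holds the E-box CACGTG:
Dkc1, chrX:75095694-75095853, plus strand: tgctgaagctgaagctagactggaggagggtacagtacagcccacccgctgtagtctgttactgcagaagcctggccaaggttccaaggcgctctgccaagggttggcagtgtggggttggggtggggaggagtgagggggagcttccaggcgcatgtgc
Nop10, chr2:112261766-112261925, plus strand: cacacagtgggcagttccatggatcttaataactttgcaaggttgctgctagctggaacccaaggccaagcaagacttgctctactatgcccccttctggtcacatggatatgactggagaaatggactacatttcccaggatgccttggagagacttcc

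**Figure D3:**
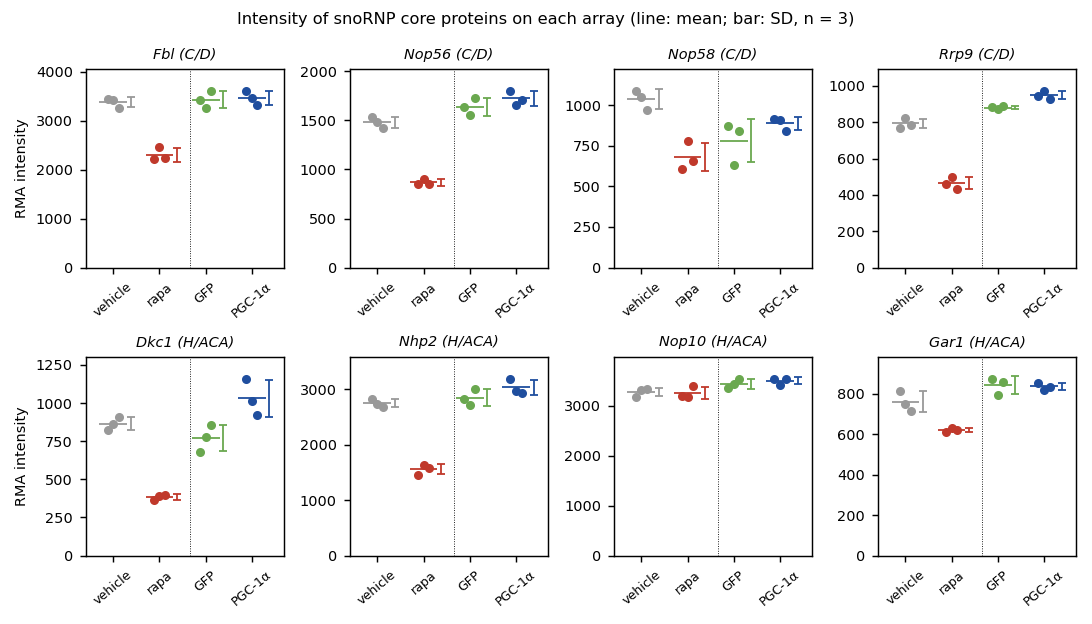
RMA intensity of the 8 snoRNP proteins on each of the 12 arrays, with the group mean (line) and SD (bar, n = 3). The dotted line parts the separately normalized experiments, so only neighbours on the same side of it can be compared. Rapamycin arrays lie below all vehicle arrays for every protein but Nop10, and only Dkc1 rose with PGC-1alpha.

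Small subunit processing factors form the processome around the nascent precursor and then mature the pre-subunit. Of 20 factors 18 fell with rapamycin. Rrp12, which helps pre-ribosomal particles mature and leave the nucleus, was at 225, 216 and 179.6 with vehicle and at 86.5, 98.1 and 103 with rapamycin, a fall of 1.11 on the log2 scale (SE 0.09, adjusted p = 1.3e-06). Utp20, a large processome scaffold, changed from 728, 749 and 707 to 382, 435 and 397 (log2 -0.85, adjusted p = 7.5e-07). Heatr1, which also supports RNA polymerase I transcription, changed from 774, 773 and 728 to 415, 475 and 427 (log2 -0.79, adjusted p = 1.5e-06). In each of these 3 the highest rapamycin value was well under the lowest vehicle value. The other 15 that fell ranged from -0.76 for Bysl to -0.35 for Utp14a. They include the RNA acetyltransferase Nat10 (-0.63), the methyltransferases Emg1 (-0.62) and Dimt1 (-0.56) and the endonuclease Nob1 (-0.55), which makes the last cut of small subunit RNA.

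The small subunit factors that did not pass the test were Rcl1 and Imp3. Rcl1, a partner of Bms1, read 812, 771 and 764 with vehicle and 707, 802 and 739.9 with rapamycin, with overlapping groups and a log2 change of -0.06 (95% interval -0.19 to 0.07, adjusted p = 0.53). Imp3, which with Imp4 helps U3 RNA pair with the precursor, read 843, 840.0 and 754 with vehicle and 812, 903 and 886 with rapamycin (0.09, 95% interval -0.04 to 0.23, adjusted p = 0.34). Its partner Imp4 fell by 0.61 on the log2 scale (adjusted p = 2.1e-05). The sign of both uncalled values depended on the scaling: with quantile normalization over all 12 arrays Imp3 stood at 0.18 (adjusted p = 0.032) and Rcl1 at 0.02, and with scaling on the bacterial spike controls Imp3 stood at -0.09 and Rcl1 at -0.25 (adjusted p = 0.016).

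All 17 large subunit factors fell with rapamycin. Wdr12, which with Pes1 and Bop1 forms the PeBoW complex needed for processing of large subunit RNA, was at 368, 377 and 343 with vehicle and at 159, 177 and 179 with rapamycin. Its log2 change of -1.08 (SE 0.06, adjusted p = 2.1e-07) was the largest of the class by brightest probe set. The dimmer probe sets of Wdr12 gave -0.26 (adjusted p = 0.02) and 0.02 (adjusted p = 0.88). Grwd1, a chaperone for a large subunit ribosomal protein, changed from 586, 694 and 648 to 345, 352 and 353 (log2 -0.87, adjusted p = 9.3e-07). Its dimmer probe sets gave -1.15 and -0.90, so the order of Wdr12 and Grwd1 rests on the choice of probe set. Nop16 changed from 494, 482 and 464 to 261, 286 and 269.7 (log2 -0.82, adjusted p = 6e-07). The other PeBoW members changed by -0.73 (Bop1) and -0.47 (Pes1). The rest of the class ranged from -0.77 for Wdr74 to -0.19 for Noc3l, with the RNA methyltransferase Nop2 at -0.71 and the GTPase Gnl3, nucleostemin, at -0.65.

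Noc3l, which acts with Noc2l in pre-subunit transport, had the smallest change of the large subunit class. Its values were 456, 479.5 and 445 with vehicle and 397, 407 and 403 with rapamycin, without overlap (log2 -0.19, SE 0.05, adjusted p = 0.017). The call was lost without rapamycin replicate 3 (adjusted p = 0.052) and without vehicle replicate 2 (adjusted p = 0.082), and quantile normalization of all 12 arrays together also ended it (-0.12, adjusted p = 0.10). Pes1 had probe sets called in opposite directions. The brighter read 551, 543 and 507 with vehicle and 385, 388 and 385 with rapamycin (log2 -0.47, SE 0.05, adjusted p = 3e-05), whereas the dimmer read 95.3, 91.0 and 79.7 with vehicle and 109, 101 and 134 with rapamycin (log2 0.37, adjusted p = 0.011). The direction for Pes1 therefore rests on the choice of its probe set.

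The 6 scaffold and other nucleolar proteins all fell. Lyar, a nucleolar zinc finger protein, changed from 856, 872 and 795 with vehicle to 405, 415 and 425 with rapamycin (log2 -1.02, SE 0.06, adjusted p = 1.3e-07). Nolc1, the snoRNP chaperone Nopp140, changed from 1279, 1144 and 1047 to 558, 649 and 604 (log2 -0.94, adjusted p = 2e-06). Pa2g4, the growth-related RNA-binding protein Ebp1, changed from 2124, 1994 and 1924 to 1087, 1192 and 1080.3 (log2 -0.85, adjusted p = 8e-07). These falls were 1.80-fold or larger. Mybbp1a fell by 0.56 and nucleolin, Ncl, by 0.48 on the log2 scale. The dimmer probe sets of Pa2g4 ranged from -1.58 to -0.15 and those of Ncl from -1.19 to -0.35. Npm1, nucleophosmin, stood apart with values of 9086, 8743 and 8377 with vehicle and 7414, 8039.6 and 7853 with rapamycin (log2 -0.17, SE 0.06, adjusted p = 0.045). Its groups did not overlap, but the call was lost without rapamycin replicate 1 (adjusted p = 0.15), rapamycin replicate 3 (0.093), vehicle replicate 1 (0.18) or vehicle replicate 2 (0.11), and the second Npm1 probe set gave -0.06 (adjusted p = 0.46).

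Probe sets of a factor mostly moved the same way. Of the 33 factors with several probe sets 32 fell by the brightest, and in 19 of these 32 every probe set fell. Of the 49 dimmer probe sets 34 fell and 1, that of Pes1, rose, against 14.0% and 11.5% of all probe sets. Taking the median over the probe sets of a gene, with a call where a majority agree, 37 of the 51 factors fell and the median change was -0.54. The 6 factors whose brightest probe set has a suffix for possible cross-hybridization (_s_at or _x_at), Fbl, Nop56, Nhp2, Gar1, Tsr1 and Rrs1, fell as well.

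Other genes of the pathway were read from a list of 91 further biogenesis factors, of which 89 were measured. With rapamycin 70 of them fell and 4 rose, and their median change was -0.44. These are 78.7% and 4.49% of the list, against 18.0% and 11.3% of all genes. Of genes above percentile 75 by brightness 35.2% fell and 16.7% rose. At an unadjusted p under 0.05, 22.6% of all genes were lower and 15.6% higher. Among other small subunit factors 30 of 34 fell and 0 rose (31 and 0 at an unadjusted p under 0.05), led by Tcof1, the treacle protein of RNA polymerase I transcription (538, 534 and 522 with vehicle, 226, 277 and 239 with rapamycin, log2 -1.11, adjusted p = 3.7e-07), and Utp18 (log2 -0.73, adjusted p = 2.1e-06). Among other large subunit factors 24 of 34 fell and 3 rose. Urb1 fell by 0.92 and the rRNA methyltransferase Rrp8 by 0.65 on the log2 scale, while Nop53, which brings the RNA exosome to pre-ribosomes, rose from 1327, 1288 and 1266 to 1478, 1618 and 1508 (log2 0.25, adjusted p = 0.005). Of 9 snoRNP assembly factors 7 fell, with Znhit3 and Ruvbl2 both at -0.63. Of 12 RNA exosome genes, whose complex trims precursor ends, 9 fell and 1 rose. Exosc2 (-0.94) and Exosc8 (-0.89) fell most, and Exosc5 went the other way, from 468, 464 and 478 to 551, 612 and 619 (log2 0.34, adjusted p = 0.00078). With scaling on the spike controls 0 of the 4 rises passed the test, with Nop53 at 0.06 and Exosc5 at 0.15.

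**Figure D4:**
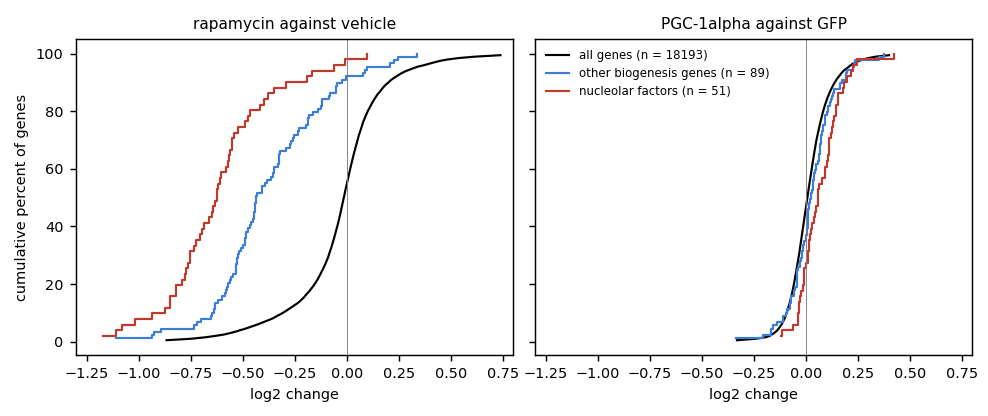
Cumulative percent of genes by log2 change for the 51 nucleolar factors, the 89 other biogenesis genes and all 18193 genes, in each comparison. With rapamycin the factors (median -0.62) and the other biogenesis genes (median -0.44) lie left of all genes (median -0.01); with PGC-1alpha the medians are 0.06, 0.03 and 0.01.

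With PGC-1alpha against GFP, 0 of the 51 factors fell and 1, Dkc1, rose at an adjusted p under 0.05 (limma), and at an unadjusted p under 0.05 the counts were 0 and 10. Of all 18193 genes 0.594% fell and 1.41% rose, and of the genes above percentile 75 by brightness 1.14% fell and 3.14% rose. At the unadjusted threshold 3.31% of all genes were lower and 8.88% higher, and of the genes above that percentile 3.81% were lower and 17.3% higher, near the share that 10 of 51 factors make. The median change of the factors was 0.06 and that of all genes 0.01. Values ran from -0.12 to 0.42, with 38 factors above 0. In 12 factors all PGC-1alpha arrays lay above all GFP arrays, against 10.1% of all genes in that order, and in 0 factors all lay below, against 5.72%. The shares in these orders were not taken among bright genes, where called rises were more frequent than among all genes. Relative to the GFP mean of each gene, the median factor stood at 0.11, 0.04 and 0.03 on the PGC-1alpha arrays and at 0.00, -0.06 and 0.06 on the GFP arrays, so that GFP replicate 3 lay above both PGC-1alpha replicates 2 and 3.

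Dkc1 read 680.0, 775 and 853 with GFP and 1161, 1012 and 919 with PGC-1alpha, without overlap (log2 0.42, SE 0.09, adjusted p = 0.043). The rise was not shared by its other probe sets: the second read 396, 462 and 562 with GFP and 544, 483 and 448 with PGC-1alpha (log2 0.06, adjusted p = 0.91), and the third fell from 509, 508 and 523 to 409.7, 388 and 330.3 (log2 -0.45, adjusted p = 0.0098). All 3 probe sets of Dkc1 fell with rapamycin, by 1.17, 1.10 and 0.77 on the log2 scale. The call in the brightest probe set was lost when any single array other than GFP replicate 3 was left out, where the adjusted p was 0.18 and 0.16 for leaving out GFP replicates 1 and 2 and 0.18, 0.13 and 0.054 for leaving out PGC-1alpha replicates 1, 2 and 3.

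GFP replicate 3 bears on the count of rises. By the SD of log2 differences over probe sets it lay nearer to PGC-1alpha replicates 1, 2 and 3 (0.142, 0.151 and 0.150) than to GFP replicates 1 and 2 (0.155 and 0.167). By correlation the order was mixed. The values were 0.99748, 0.99725 and 0.99724 with PGC-1alpha replicates 1, 2 and 3, and 0.99733 and 0.99705 with GFP replicates 1 and 2. When GFP replicate 3 was left out 6 factors rose: Dkc1 (0.50, adjusted p = 0.0082), Bop1 (0.30, 0.01), Nob1 (0.27, 0.026), Nat10 (0.27, 0.027), Nop2 (0.21, 0.042) and Noc4l (0.21, 0.041). Of all genes 6.6% rose and 1.07% fell without that array. The share among bright genes was not taken for that fit.

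In the other classes no factor passed the test on all arrays, and the smallest p-values belonged to genes with modest differences. Bop1 read 747, 759 and 846 with GFP and 960.3, 927 and 896 with PGC-1alpha (log2 0.24, SE 0.06, adjusted p = 0.09). Nop2 read 1208, 1165 and 1264 against 1382, 1395 and 1351 (0.18, adjusted p = 0.17). Among small subunit factors Nat10 read 331, 304 and 345 with GFP and 399, 372 and 374 with PGC-1alpha (0.23, adjusted p = 0.12). In these 3 and in Nob1 (759, 694 and 818 against 919.9, 859 and 856, log2 0.22, adjusted p = 0.18) all PGC-1alpha arrays were above all GFP arrays. At the other end Utp14a was at 425, 411 and 422 with GFP and 436, 399.8 and 425 with PGC-1alpha, a change of 0.00. Nle1 was at 344, 332 and 367 against 359, 363 and 334 (0.02). Both overlapped fully.

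The box C/D proteins had log2 values of 0.01 (Fbl), 0.08 (Nop56), 0.20 (Nop58) and 0.11 (Rrp9) with PGC-1alpha, none past the test. Nop58 varied most among the GFP arrays, at 873, 629.6 and 842, against 912, 908 and 842 with PGC-1alpha. Rrp9 was the only one of the 4 without overlap, at 881, 870.1 and 889.8 with GFP and 946, 974 and 929 with PGC-1alpha (adjusted p = 0.5). Fbl read 3429, 3259 and 3614 against 3617, 3457 and 3332, and Nop56 1636, 1551 and 1726 against 1805, 1660.0 and 1711. In the H/ACA class, apart from Dkc1, the log2 values were 0.09 for Nhp2, 0.03 for Nop10 and -0.01 for Gar1. Nhp2 read 2829, 2708 and 3007 with GFP and 3191, 2973 and 2935 with PGC-1alpha. Nop10 read 3346, 3436 and 3543 against 3546, 3420.4 and 3544, and Gar1 876, 794 and 860.0 against 856, 819 and 835. Groups overlapped in all 3.

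Among scaffold and other proteins the smallest p-values were those of Nolc1 and Lyar. Nolc1 read 1111, 1022 and 1127 with GFP and 1257, 1200.4 and 1122 with PGC-1alpha (log2 0.13, adjusted p = 0.47), and Lyar 847, 778 and 915 against 1005, 891 and 911 (0.15, adjusted p = 0.49). The groups overlapped in both. Npm1 read 8742, 8171 and 8513 against 8620.3, 8381 and 8265, a change of -0.01. In this comparison the probe sets of Pa2g4, like those of Dkc1, disagreed. The brightest of Pa2g4 gave -0.12 (2131, 2206 and 2234 against 2141, 2032 and 1891, adjusted p = 0.53). A pair of dimmer ones rose, from 862, 942 and 998 to 1337, 1259.7 and 1140.2 (0.41, adjusted p = 0.015) and from 369.8, 370.1 and 400.2 to 499, 509 and 451 (0.35, adjusted p = 0.017). The same pair showed the largest Pa2g4 falls with rapamycin, at -1.58 and -1.51.

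Of the 89 other pathway genes 0 fell and 2 rose with PGC-1alpha in limma's test, and 5 were lower and 12 higher at an unadjusted p under 0.05. Those 2 rises are 2.25% of the list, against 1.41% of all genes and 3.14% of genes above percentile 75 by brightness, and the unadjusted shares of all genes were 3.31% lower and 8.88% higher. Tcof1 read 360.3, 426 and 462 with GFP and 570.2, 536 and 508 with PGC-1alpha (log2 0.38, SE 0.09, adjusted p = 0.045). Rrp8 read 449, 452 and 491 against 610.2, 567 and 596 (0.35, SE 0.06, adjusted p = 0.013). Neither gene's groups overlapped. The call for Tcof1 was lost without any array except GFP replicate 3 (adjusted p between 0.10 and 0.20) and when all 12 arrays were quantile normalized together (0.054), and that for Rrp8 without GFP replicate 1 (0.068), GFP replicate 2 (0.069), PGC-1alpha replicate 1 (0.07) or PGC-1alpha replicate 3 (0.076).

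The effects of both treatments were then compared in a fit of all 12 arrays, each effect taken inside its own experiment. The effect of rapamycin was lower than that of PGC-1alpha in 46 of the 51 factors and higher in 0 at an adjusted p under 0.05 (46 and 0 at an unadjusted p under 0.05, against 21.6% and 12.1% of all genes), against 16.5% lower and 7.59% higher among all genes and 33.6% and 11.2% among genes above percentile 75 by brightness. The median difference was -0.69 log2 units, and all 51 factors were below 0. By brightest probe set Dkc1 differed most, by -1.59 (adjusted p = 3.6e-08). Wdr12 (-1.26, adjusted p = 2.9e-08), Rrp12 (-1.17, adjusted p = 6.3e-07) and Lyar (-1.16, adjusted p = 8.4e-08) followed. The dimmer probe sets of Dkc1 gave -1.17 and -0.32, and the latter was not called (adjusted p = 0.052). Some dimmer probe sets of Pa2g4 differed further than Dkc1, such as that at -1.86 (adjusted p = 2.9e-10), and others differed less. The top rank of Dkc1 therefore rests on the choice of probe set. The value for Wdr12 rests on its brightest probe set: the median over its 3 probe sets was -0.17 and was not called. Nop10, Rcl1, Imp3, Noc3l and Npm1 did not pass: for Nop10 the difference was -0.03 and for Npm1 -0.16 (adjusted p = 0.18). The call for Gar1 (-0.28, adjusted p = 0.02) was lost without GFP replicate 2 (adjusted p = 0.059), PGC-1alpha replicate 1 (0.051) or vehicle replicate 1 (0.071), and when all 12 arrays were quantile normalized together (-0.15, adjusted p = 0.20).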

How the data were processed

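The authors deposited RMA intensities per probe set, made per the series' text with default settings in BioConductor 1.2, in 1 batch for rapamycin and vehicle and another for PGC-1alpha and GFP. Per the submitters' processing notes the tool was RMA, and per the labels' protocols Trizol was used to isolate the RNA, which carried a biotin label. The sources used here do not say whether the deposited intensity values are linear; their range, 9.3 to 21072, was taken as linear, and log2 was applied with nothing added. Precision is limited by the 3 arrays per group, and detection calls were not used.

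Of 45101 probe sets 64 controls were left out. Each comparison was fitted on its 6 arrays with limma 3.58.1 (lmFit, eBayes) in R 4.3.3, two-sided, with Benjamini-Hochberg adjustment over 45037 probe sets and a threshold of 0.05. Differences between effects came from a fit of 4 group means. The fit was tested on simulated data. The p-values reflect the spread between the arrays only. Errors of log2 changes are moderated standard errors. Genes were named only from probe sets with 1 symbol. Tables and figures were made in Python 3.11.15 (pandas 2.3.3, matplotlib 3.10.9).

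Members, lists and tests were chosen with earlier results of these data known. Values per array are given for all proteins of both snoRNP classes. Per other class and comparison they are given for the 3 largest changes past the threshold, the smallest change and every factor that rose. They are also given for factors called with PGC-1alpha (where none, the 2 smallest p) and factors with opposite probe sets. Of other pathway genes the 2 largest changes past the threshold per class and the largest opposite one were named. Noc4l, Rcl1, second probe sets and members quoted by log2 change alone were chosen after their values were seen. Alternatives were other scalings (quantile over 12 arrays, 18 spike-control probe sets), dim probe sets left out, other choices of probe set, 16 added before log2, all arrays in a single fit, an intensity trend, replicate blocks and each array left out.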

Additional observations from a re-analysis of the deposited data

How the results depend on the processing

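Of the 48 falls with rapamycin 37 passed in every alternative run, and the count was 46 to 49 apart from 37 with the median over probe sets. Quantile normalization over 12 arrays gave 1 rise, that of Imp3. Scaling on the spike controls moved the median of all probe sets by -0.19 with rapamycin, where 8382 genes then fell and 604 rose (3275 and 2061 as deposited), and to 0.16 with PGC-1alpha, where 4 fell and 169 rose (108 and 257). It moved the factors' median to -0.81 and 0.23, and that of the difference to -1.04 (-0.56 with quantile normalization over 12 arrays). Of other pathway genes 0 rose with rapamycin under spike scaling and 2 by the median over probe sets, against 4. With PGC-1alpha 1 factor rose as deposited, 0 with 16 added or by the median over probe sets, 2 with all 12 arrays in a single fit, and 0 to 6 with an array left out; of other pathway genes 2 rose, 1 with 16 added or by the median over probe sets, 5 with all 12 arrays and 0 to 8 with an array left out, and 1 fell with quantile normalization over 12 arrays. Of the 46 calls for the difference of effects 35 held in every alternative run; the median over probe sets left 36, ending 8, among them Wdr12 (-0.17), and turning the sign of the others, to 0.059 for Pes1 and 0.010 for Ebna1bp2. Same-numbered arrays were not treated as pairs in the main fit. Correlations of their deviations were -0.05, 0.07 and 0.00 for rapamycin and vehicle and -0.13, 0.23 and -0.01 for PGC-1alpha and GFP. Those of differently numbered arrays ran from -0.14 to 0.15 and from -0.22 to 0.21. With 3 same-numbered pairs per experiment these values cannot decide whether the arrays were paired. With the replicate number as a block, 47 factors fell with rapamycin, Npm1 no longer passing (adjusted p = 0.065), 0 factors and 1 other pathway gene rose with PGC-1alpha, and the difference kept its 46 calls. No detection calls were used, so the level of dim probe sets over background is not known.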
